A study of Mus musculus with 18 samples.

Results

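The complement genes outside the C1q subunits, namely C2, C3, C4b, C1s1, C1ra, Cfb, Cfi, Serping1 and Cd55, were followed by gene symbol in the ovarian transcriptome of F1 female mice. All 9 of 9 symbols were among the 30172 genes measured. The libraries came from whole ovaries of wild-type C57BL/6J females at Pd3, Pd7 and Pd21 (postnatal days 3, 7 and 21). Their dams ate either a diet with 3% methionine, which was given to raise homocysteine, from 4 weeks before mating and on through pregnancy and nursing (F1-HHcy), or normal chow (F1-Control), as the labels have it, and all dams were mated with males on a normal diet. The study's methods give a longer feeding period before mating and a control diet of set methionine content, and which of the accounts holds for these dams is not settled here. The pups themselves received no treatment. Each of the 6 groups had 3 libraries, which makes 18 in all, and neither the number of pups behind a library nor the litter is given, so p-values measure the spread between these libraries. The question was whether the diet of the dam was accompanied by altered ovarian transcripts before puberty.

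Complement is a cascade of serum and tissue proteins that marks surfaces for removal by phagocytes and can assemble a pore in membranes. The classical pathway starts when C1q binds its target and activates the proteases C1r (C1ra) and C1s (C1s1), which cut C4 (C4b) and C2 to form a convertase, the enzyme that splits C3. The alternative pathway amplifies the reaction with factor B (Cfb) on deposited C3 fragments. Several inhibitors hold it back: C1 inhibitor (Serping1) inactivates C1r and C1s, factor I (Cfi) degrades deposited C3 and C4 fragments, and decay-accelerating factor (Cd55) takes convertases apart on the cell surface. The liver makes most plasma complement, but fibroblasts, epithelia and macrophages also transcribe these genes.

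Values are FPKM, fragments scaled by gene length and by the fragments of the library, so that levels of different genes can be set side by side as far as the assumed gene lengths hold, which for C2 and Cd55 differ from the annotated exons. Between 33630547 and 39399215 fragments were counted per library, with group medians from 34112548 to 38927567. Serping1 was the most abundant member in all 6 groups, with group means from 35.9 to 113 FPKM. C1s1, C1ra, C2, C3 and Cd55 were at 4.17 FPKM or more in every library. C4b, Cfb and Cfi were near or below 1 FPKM in most libraries, with 8 to 507, 46 to 538 and 23 to 501 fragments per library behind their values. Of 8 hepatocyte markers, Alb, Apoa2 and Fgb stayed under 1 FPKM in all 18 libraries, and Ttr, Serpina1a, Ahsg and Cyp2e1 reached at most 9.74 FPKM. Apoa1 reached 56.3 FPKM and made up most of the list, which summed to between 2.79 and 61.9 FPKM. Apoa1 was called higher in F1-HHcy at Pd3 (2.56 on the log2 scale) and Pd7 (0.80), and at Pd21 Ttr was called higher (1.24) and Cyp2e1 lower (-1.34) in limma, and the part of their source in the complement values was not tested. Oocyte markers summed to at least 550.5 FPKM in each library. In bulk tissue, fewer cells of a type and less RNA per cell cannot be told apart.

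**Figure D1:**
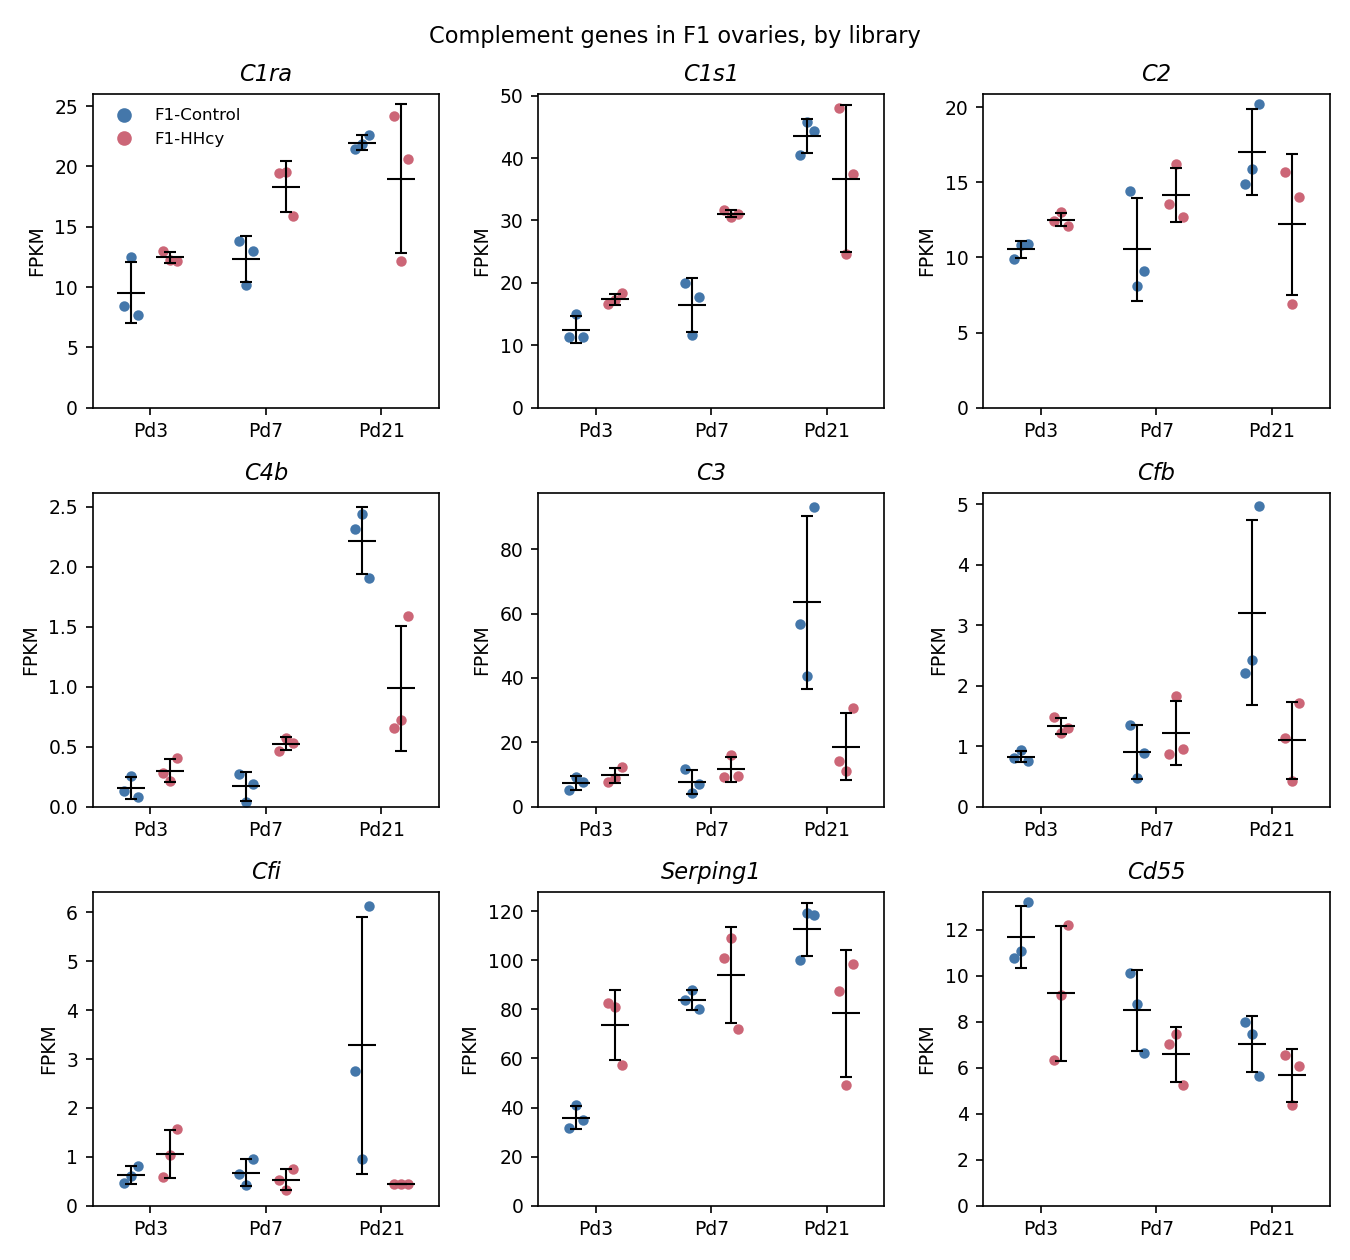
FPKM (vertical axes, from 0) of the 9 complement genes in each library, by day and by the diet of the dam; dots are libraries, and black bars give the mean with the SD of 3 libraries. C2, C1s1, Cfb and Serping1 were higher in all 3 F1-HHcy than in all 3 F1-Control libraries at Pd3, as were C4b, C1s1 and C1ra at Pd7. C3, C4b, Cfb, Cfi and Serping1 were lower in all 3 F1-HHcy than in all 3 F1-Control libraries at Pd21.

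In the GRCm38 annotation (GENCODE), the members lie on chromosomes 1, 2, 3, 6 and 17. C2 (17, 34862604 to 34898265), Cfb (17, 34856374 to 34862518) and C4b (17, 34728380 to 34743882) share the complement cluster of the major histocompatibility region, all on the minus strand, and 85 bases separate Cfb from C2. C3 lies elsewhere on the same chromosome (17, 57203970 to 57228136, minus strand). C1ra (6, 124512405 to 124523443, plus strand) and C1s1 (6, 124530345 to 124542359, minus strand) are neighbours with 6901 bases between them. Serping1 (2, 84765387 to 84775444, minus strand), Cfi (3, 129835884 to 129875332, plus strand) and Cd55 (1, 130439027 to 130462744, minus strand) are single loci, and all 9 are annotated as protein coding. The annotated C2 gene overlaps Zbtb12 on the other strand, which averaged 20.8 FPKM, and whether the counting used strand is not given in the sources used here, so the C2 values may hold reads of Zbtb12. Gm20547, a protein-coding gene on the same strand, overlaps both C2 and Cfb and was not among the genes measured. How reads in the shared stretches were counted for C2 and Cfb was not tested. Copies with close sequence, C1rb for C1ra, C1s2 for C1s1 and Cd55b for Cd55, could share reads with the members, and C4a, the close copy of C4b, was not analysed here. The gene length implied by the values was 12210 bases for Cd55, against 4853 bases of annotated exons, and 2644 against 3872 bases for C2, and a longer assumed gene lowers the FPKM and a shorter one raises it relative to the other members.

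RefSeq promoter windows on GRCm38.p6, 250 bases before to 50 after the annotated start, matched 4 of the 9 members (C3, C1s1, C1ra and Cd55). The windows printed here, on the strand of the gene, are those of the neighbours C1ra and C1s1, whose levels ran together, and that of C3, which had the largest diet difference among the members called at Pd21. Capitals mark matches, searched on both strands, to TATAAA (the TATA box), to CCAAT (the box bound by NF-Y), to GAAANNGAA (a core of interferon response elements) or to TTCNNNGAA (a core of STAT sites, which reads the same on both strands). The windows are chr17:57228087-57228386 for C3, chr6:124512371-124512670 for C1ra and chr6:124542310-124542609 for C1s1, the upstream one of its 2 listed starts.
C3: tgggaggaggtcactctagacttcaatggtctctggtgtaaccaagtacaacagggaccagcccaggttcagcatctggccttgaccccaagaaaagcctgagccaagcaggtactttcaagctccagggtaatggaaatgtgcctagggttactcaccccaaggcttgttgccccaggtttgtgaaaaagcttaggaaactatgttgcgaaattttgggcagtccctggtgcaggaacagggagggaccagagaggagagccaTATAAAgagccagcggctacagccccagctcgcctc
C1ra: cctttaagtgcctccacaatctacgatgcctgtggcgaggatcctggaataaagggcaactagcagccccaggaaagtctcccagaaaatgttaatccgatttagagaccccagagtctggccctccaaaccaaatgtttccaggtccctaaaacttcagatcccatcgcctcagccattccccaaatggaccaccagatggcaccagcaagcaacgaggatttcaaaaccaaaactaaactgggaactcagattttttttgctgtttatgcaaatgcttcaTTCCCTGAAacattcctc
C1s1: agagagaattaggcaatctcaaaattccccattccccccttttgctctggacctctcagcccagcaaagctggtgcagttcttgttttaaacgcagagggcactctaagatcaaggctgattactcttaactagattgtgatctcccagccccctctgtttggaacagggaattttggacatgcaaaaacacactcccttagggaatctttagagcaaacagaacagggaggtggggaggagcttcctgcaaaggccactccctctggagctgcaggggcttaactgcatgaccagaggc
The C3 window held TATAAA from position 15, counting the annotated start as 1, and the C1ra window held TTCNNNGAA from position 33. Both matches thus lay after the RefSeq start, and whether either acts as such a site was not tested. For C1ra the GENCODE gene given above begins at 124512405, inside the printed window and before the RefSeq start. Most of the C1ra window thus lies within the gene as GENCODE places it. No match stood in the printed C1s1 window. Of 32851 RefSeq promoter windows of the same length, 13.6% held TATAAA, 37.4% CCAAT, 8.56% GAAANNGAA and 8.30% TTCNNNGAA.

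The diet groups were first compared at Pd3, when primordial follicles have just formed. The test was limma on log2(FPKM + 1), run on every gene that reached 1 FPKM in 3 or more of the 6 libraries, and a gene counts as called where its p before adjustment is under 0.05 and its log2 fold change exceeds 0.58 in either direction. The adjusted p-values come from Benjamini-Hochberg adjustment over all genes tested, and a fold change on this scale understates the change of genes near 1 FPKM. Of all 13277 genes tested at Pd3, 5.0% were called higher and 4.74% lower in F1-HHcy, 3.07% had an adjusted p under 0.05, and the groups did not overlap for 27.9%. Among the 7 members tested, 1 was called higher and none lower, and 4 of the 7 had groups that did not overlap. These were C2, C1s1, Serping1 and Cfb, of which Cfb was among the genes tested only through its F1-HHcy libraries, so its place in the count follows from the filter.

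Serping1, which encodes the inhibitor of C1r and C1s, rose in F1-HHcy at Pd3. It stood at 31.8, 41.0 and 35.0 FPKM in the F1-Control libraries (35.9 ± 4.70, SD, n = 3) and at 82.7, 81.1 and 57.4 FPKM in the F1-HHcy libraries (73.7 ± 14.1). The lowest F1-HHcy library lay above the highest F1-Control library. The log2 fold change was 1.01 (SE 0.17) with an adjusted p of 0.0307 in limma, and the call held without any single one of the 6 libraries. That call rests on the p before adjustment. Over the alternative settings the highest adjusted p of Serping1 was 0.188 in limma.

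The proteases that Serping1 inhibits were less far apart at Pd3. C1s1 measured 11.3, 15.0 and 11.3 FPKM in F1-Control and 16.6, 17.2 and 18.3 FPKM in F1-HHcy, so the groups did not overlap, with a log2 fold change of 0.45 (SE 0.13) and an adjusted p of 0.109 in limma. Without F1-Control replicate 2 its log2 fold change was 0.58 and C1s1 was called. C1ra had 12.5 FPKM in F1-Control replicate 2, inside the F1-HHcy range of 12.2 to 12.96 FPKM, and its log2 fold change of 0.38 (SE 0.17) had an adjusted p of 0.242 in limma. C2, the protease cut by C1s, ranged from 9.88 to 10.9 FPKM in F1-Control and from 12.1 to 12.99 FPKM in F1-HHcy, a separation without overlap but small, at 0.23 (SE 0.10) on the log2 scale with an adjusted p of 0.234 in limma.

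C3, the component on which all pathways meet, overlapped between the groups at Pd3, with 5.09, 9.10 and 7.81 FPKM against 7.80, 8.997 and 12.4 FPKM. Its log2 fold change was 0.38 (SE 0.23) with an adjusted p of 0.372 in limma. Cfb measured 0.80, 0.937 and 0.751 FPKM in F1-Control and 1.48, 1.22 and 1.30 FPKM in F1-HHcy. It passed the filter only through the F1-HHcy libraries, where it was higher, and its log2 fold change was 0.35 (SE 0.14, adjusted p = 0.193 in limma). Cfb was called with a pseudocount of 0.1 (log2 fold change 0.63) and by limma-voom (0.69). Cd55, the surface inhibitor, had the only negative value, -0.35 (SE 0.21), with overlapping groups at 10.8 to 13.2 and 6.31 to 12.2 FPKM and an adjusted p of 0.375 in limma. C4b (0.0831 to 0.260 against 0.214 to 0.402 FPKM) and Cfi (0.462 to 0.818 against 0.594 to 1.57 FPKM) were below the filter and overlapped. Over the 7 members tested the median log2 fold change was 0.38, against -0.03 over all genes tested.

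Markers of several ovarian cell types moved at Pd3 beside these values. Of 8 stromal fibroblast markers, 5 were higher and none lower in F1-HHcy, with a summed level of 757.5 to 1015 FPKM in F1-Control and 1326 to 1625 FPKM in F1-HHcy, and the largest rise was that of Pdgfra at 1.83 (SE 0.18) on the log2 scale. Of 8 endothelial markers, 3 were higher (summed 47.2 to 65.5 against 77.9 to 116 FPKM), and of 8 granulosa and 8 oocyte markers, 5 and 6 were higher. Granulocyte markers went the other way, with 4 of 8 lower and summed levels of 277 to 1110 against 8.78 to 147 FPKM, while Ly6g and Cxcr2 stayed under 1 FPKM in both groups. None of 8 macrophage markers was called in limma, at 50.7 to 96.3 against 59.9 to 78.2 FPKM in sum. The part of these cell types in the Serping1 result was not tested.

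At Pd7, C1s1 was the member called. Of all 13299 genes tested, 9.06% were called higher and 7.35% lower in F1-HHcy, 11.9% had an adjusted p under 0.05, and 39.0% had groups that did not overlap. Of the 6 members tested, 1 was called higher and none lower, and 2 of the 6 had groups that did not overlap.

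C1s1, the protease that cuts C4 and C2, rose in F1-HHcy at Pd7. It measured 19.95, 11.7 and 17.7 FPKM in F1-Control (16.5 ± 4.25, SD, n = 3) and 31.7, 30.5 and 31.1 FPKM in F1-HHcy (31.1 ± 0.584). All F1-HHcy libraries lay above all F1-Control libraries, and the log2 fold change was 0.91 (SE 0.19, adjusted p = 0.0151 in limma). C1ra, its neighbour on chromosome 6 and the protease that activates it, measured 13.8, 10.1 and 12.99 against 19.5, 19.6 and 15.9 FPKM. Its groups did not overlap either, but its log2 fold change of 0.54 (SE 0.16, adjusted p = 0.0544 in limma) was below the threshold of size, and it was called without F1-Control replicate 1 (0.62), without F1-Control replicate 3 (0.58) or without F1-HHcy replicate 3 (0.64).

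Serping1 was nearly level at Pd7, with 83.7, 87.8 and 80.0 FPKM in F1-Control and 101, 109 and 72.0 FPKM in F1-HHcy. The groups overlapped, and the log2 fold change was 0.14 (SE 0.18, adjusted p = 0.609 in limma). C3 measured 11.7, 4.17 and 6.98 against 9.31, 16.1 and 9.46 FPKM (log2 fold change 0.60, SE 0.31, adjusted p = 0.213 in limma), and C2 14.4, 8.09 and 9.09 against 13.5, 16.2 and 12.7 FPKM (0.42, SE 0.21, adjusted p = 0.186). F1-Control replicate 1 was the highest control library for both, and without it C2 (0.65) and C3 (0.93) were called, which brought the count to 4 of 6. Cd55 stayed on the negative side with overlapping groups (-0.32, SE 0.19, adjusted p = 0.263 in limma).

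Of the 3 members below the filter at Pd7, C4b differed without overlap, at 0.276, 0.0413 and 0.190 FPKM in F1-Control against 0.465, 0.575 and 0.532 FPKM in F1-HHcy, a ratio of means of 3.10. The count behind it is low, 8 fragments in the lowest control library, and no library reached 1 FPKM. Cfb (0.470 to 1.356 against 0.868 to 1.83 FPKM) and Cfi (0.420 to 0.955 against 0.327 to 0.749 FPKM) overlapped. The median log2 fold change of the 6 members tested was 0.48, against -0.0015 over all genes tested.

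Beside the Pd7 values, all 8 theca and steroidogenic markers were higher in F1-HHcy (summed 239.5 to 478 against 1190 to 1248 FPKM), led by the steroid hydroxylase Cyp17a1 at 5.34 (SE 0.63) on the log2 scale, as were 6 of 8 granulosa markers. Of 8 oocyte markers 2 were higher and 4 lower. Of 8 mesothelium and surface epithelium markers 3 were lower (429 to 682 against 196 to 394 FPKM in sum). Of 8 stromal fibroblast markers only Dcn was called, and it was lower, with sums of 1389 to 1787 against 1063 to 1561 FPKM. Of 8 macrophage markers 1, Lyz2, was lower (72.2 to 103 against 39.4 to 60.7 FPKM in sum). How far these shifts bear on C1s1 was not tested.

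**Figure D2:**
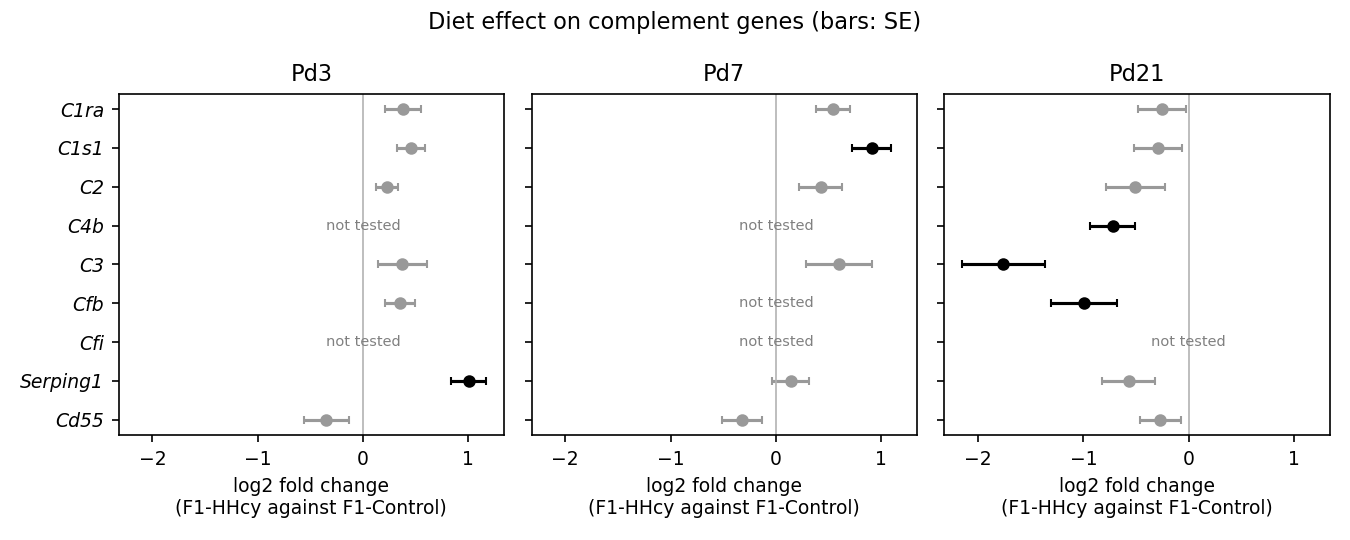
Log2 fold change of F1-HHcy against F1-Control on the log2(FPKM + 1) scale (horizontal axes) for the members that passed the filter at each day, with bars for the SE of the fit. Black points were called (Serping1 at Pd3, C1s1 at Pd7, and C3, C4b and Cfb at Pd21), grey points were not, and at Pd21 all 8 tested members lie below 0.

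At Pd21, around weaning, all tested members lay below 0, where Cd55 had already been at Pd3 and Pd7. Of the 13350 genes tested, 0.0824% were called higher in F1-HHcy and 5.06% lower, 2.23% had an adjusted p under 0.05, and 10.5% had groups that did not overlap. Of the 8 members tested, 3 were called lower (C3, C4b and Cfb) and none higher, all 8 had negative values, and 4 of the 8 had groups that did not overlap. Of all genes tested, 47.5% had a positive value. C4b passed the filter mostly through its F1-Control libraries, where it was higher, so its place in these counts follows in part from the filter. No member had an adjusted p under 0.05 in limma, and 3 had an unadjusted p under 0.05.

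C3 fell most among the called members. It measured 56.9, 40.6 and 93.2 FPKM in F1-Control (63.6 ± 26.9, SD, n = 3) and 14.3, 11.0 and 30.5 FPKM in F1-HHcy (18.6 ± 10.4). The lowest control library stood above the highest F1-HHcy library, and the mean in F1-HHcy was 0.293 of that in F1-Control. The log2 fold change was -1.76 (SE 0.39, adjusted p = 0.0739 in limma).

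C4b, the C4 gene that classical activation cuts, measured 2.31, 2.44 and 1.90 FPKM in F1-Control and 0.653, 0.719 and 1.59 FPKM in F1-HHcy. The groups did not overlap, and F1-HHcy replicate 3 lay closest to the controls. Its log2 fold change was -0.72 (SE 0.22, adjusted p = 0.248 in limma), and it passed the filter through the 3 control libraries and F1-HHcy replicate 3. Cfb, the protease of the alternative convertase, measured 2.22, 2.43 and 4.97 against 1.14, 0.431 and 1.71 FPKM, again without overlap (-1.0, SE 0.31, adjusted p = 0.294 in limma).

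Cfi, the protease that degrades deposited complement fragments, was below the filter at Pd21 because only 2 libraries reached 1 FPKM. It measured 2.75, 0.958 and 6.14 FPKM in F1-Control and 0.438, 0.447 and 0.450 FPKM in F1-HHcy, so all F1-HHcy libraries were lower, while the controls spread widely. Without the filter its log2 fold change was -1.37 (SE 0.46, adjusted p = 0.527 in limma).

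The classical pathway proteases and their inhibitor were less far apart at Pd21 and were not called. Serping1 measured 100.1, 119 and 119 FPKM in F1-Control and 87.4, 49.3 and 98.6 FPKM in F1-HHcy, without overlap (-0.57, SE 0.25, adjusted p = 0.744 in limma). C2 measured 14.9, 15.9 and 20.2 against 15.7, 6.88 and 14.0 FPKM (-0.51, SE 0.28), C1s1 40.4, 45.8 and 44.4 against 48.0, 24.6 and 37.5 FPKM (-0.29, SE 0.23), and C1ra 21.4, 21.9 and 22.6 against 24.1, 12.1 and 20.6 FPKM (-0.25, SE 0.23). F1-HHcy replicate 2 was the lowest library for each of these 4 genes, and without it C1ra was at 0.02 and C1s1 at -0.04 on the log2 scale. Without F1-HHcy replicate 1, C2 (-0.72) and Serping1 (-0.68) were called, which brought the count to 5 of 8, and Serping1 (-0.77) was also called without F1-HHcy replicate 3. Cd55 overlapped between the groups (-0.27, SE 0.20). The median log2 fold change of the 8 members was -0.54, against -0.01 over all genes tested.

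Markers of the oviduct, which lies beside the ovary, separated the same libraries at Pd21. All 8 oviduct epithelium markers were called lower in F1-HHcy, each with an adjusted p under 0.05 in limma, and their sum was 627, 161 and 589 FPKM in F1-Control and 24.5, 15.7 and 20.1 FPKM in F1-HHcy. At Pd3 and Pd7 that sum lay between 16.4 and 36.3 FPKM in all libraries. The ciliary regulator Foxj1 with Pax8 and Dnah5 was under 1 FPKM in all 3 F1-HHcy libraries at Pd21. Of 8 mesothelium and surface epithelium markers, 6 were lower (388, 335 and 443 against 220.0, 119 and 234 FPKM in sum), and of 8 adipocyte markers, 4 were lower (62.8, 26.3 and 285 against 45.8, 11.3 and 6.04 FPKM). Of 8 stromal fibroblast markers Dcn and Gsn were lower, and no macrophage, endothelial, theca, granulosa or oocyte marker was called in limma.

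F1-Control replicate 2 had the lowest oviduct sum of the controls, 161 FPKM, and its C3 level of 40.6 FPKM was above all 3 F1-HHcy libraries. Its Cfi level of 0.958 FPKM was the lowest of the controls, as was its C3 level. By contrast, its C4b level was the highest of the controls and its Cfb level was not the lowest. With F1-Control replicates 1 and 3 left out, C3 was at -1.21 and Cfb at -0.76 on the log2 scale. This setting was chosen after the data were seen, keeps 1 control and assumes it varies like the other group. Calls are therefore not given for it. C4b gave no value in that setting. The part of oviduct, surface epithelium or fat tissue in the levels of C3, C4b, Cfb and Cfi was not tested beyond these values.

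**Figure D3:**
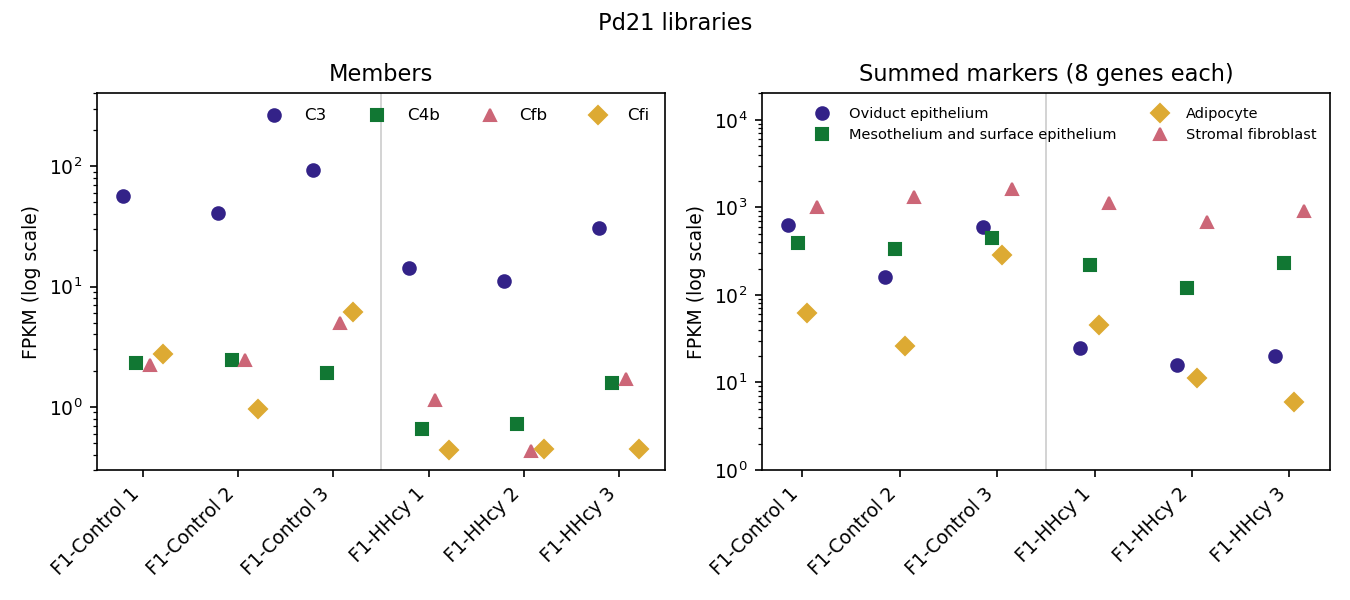
FPKM at Pd21 on a log axis for C3, C4b, Cfb and Cfi and for the summed markers of oviduct epithelium, mesothelium, adipocytes and stromal fibroblasts, 1 point per library. The oviduct sum was 161 to 627 FPKM in F1-Control and 15.7 to 24.5 FPKM in F1-HHcy, and C3 was 40.6 to 93.2 against 11.0 to 30.5 FPKM.

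Between Pd3 and Pd7, when the first follicles grow, 1 member was called in each diet group, and neither age change differed between the diet groups past the threshold, as the difference of the diet effects shows. In F1-Control, where 7.00% of 13336 genes were called higher and 7.77% lower at Pd7, Serping1 was the 1 member called, at 1.21 on the log2 scale (SE 0.13, adjusted p = 0.000893 in limma), from 35.9 to 83.8 FPKM on average. In F1-HHcy, where 5.73% of 13257 genes were called higher and 5.36% lower, C1s1 was the 1 member called, at 0.80 (SE 0.10, adjusted p = 0.0892 in limma), from 17.4 to 31.1 FPKM. Serping1 in F1-HHcy was at 0.34 (adjusted p = 0.350 in limma), having already stood at 73.7 FPKM at Pd3. C1s1 in F1-Control was at 0.35 with overlapping days. Both comparisons share libraries with the diet comparisons.

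The diet differences were then compared between days in a model of all 18 libraries, in which a gene was called with an adjusted p under 0.05. Between Pd7 and Pd3, 0.411% of 14607 genes were called and none of the 9 members, and 1 member, Serping1, had an unadjusted p under 0.05 in limma (difference -0.86, SE 0.31, adjusted p = 0.247). Between Pd21 and Pd3, 4.59% of genes were called and 5 members, all with a negative difference. C4b passed the filter only through Pd21 libraries, mostly of F1-Control. Cfi passed it only through F1-Control libraries at Pd21 and F1-HHcy libraries at Pd3. The share over all genes is thus no measure for C4b and Cfi. Serping1 differed by -1.58 (SE 0.31, adjusted p = 0.00598 in limma), C3 by -2.14 (SE 0.54, adjusted p = 0.0288), C4b by -0.89 (SE 0.23, adjusted p = 0.0355), Cfi by -1.70 (SE 0.45, adjusted p = 0.0377) and Cfb by -1.35 (SE 0.36, adjusted p = 0.0433). Serping1 kept its call without any 1 of the 18 libraries, with a highest adjusted p of 0.0355 in limma, while the other 4 each lost it without some library. C3 lost it without F1-Control Pd3 replicate 1, F1-HHcy Pd3 replicate 2, F1-Control Pd21 replicate 1 or 3, or F1-HHcy Pd21 replicate 1 or 2, with adjusted p-values of up to 0.111 in limma. Without single libraries, the highest adjusted p was 0.0989 for C4b (call lost on leaving out 12 of the 18 libraries), 0.139 for Cfb (13 libraries) and 0.109 for Cfi (11 libraries). C4b kept its call without F1-HHcy Pd3 replicate 3, any F1-Control Pd7 library, F1-HHcy Pd7 replicate 3 or F1-HHcy Pd21 replicate 3, Cfb without F1-HHcy Pd3 replicate 3, F1-Control Pd7 replicate 1 or 2, F1-HHcy Pd7 replicate 2 or F1-HHcy Pd21 replicate 3, and Cfi without F1-HHcy Pd3 replicate 1, any F1-Control Pd7 library, F1-HHcy Pd7 replicate 2 or 3, or F1-Control Pd21 replicate 2. Under other settings, C3 lost its call without the filter (adjusted p = 0.0756 in limma), Cfi without the filter (0.0878) and with limma-voom (0.101), C4b with the replicate block (0.0546), a pseudocount of 0.1 (0.0908) and limma-voom (0.114), and Cfb with the replicate block (0.0551), a pseudocount of 0.1 (0.0579), limma-voom (0.0833) and no filter (0.0977). Serping1 kept its call under each of these settings.

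Between Pd21 and Pd7, 3.89% of genes were called and 3 members, again all negative, and the share over all genes is no measure for C4b here either. C4b differed by -1.11 (adjusted p = 0.00897 in limma), C3 by -2.36 (adjusted p = 0.0170) and C1s1 by -1.20 (SE 0.29, adjusted p = 0.0247). C4b kept its call without any 1 library, with a highest adjusted p of 0.0478 in limma. C3 lost it without F1-Control Pd7 replicate 2, F1-HHcy Pd7 replicate 2, F1-Control Pd21 replicate 1 or 3, or F1-HHcy Pd21 replicate 2 (adjusted p up to 0.0796), and C1s1 without 8 libraries (F1-Control Pd7 replicate 2, F1-HHcy Pd21 replicate 2, and each F1-HHcy Pd7 and F1-Control Pd21 library, adjusted p up to 0.0814). Cfi was also called without F1-Control Pd21 replicate 2 (adjusted p = 0.0105 in limma), C1ra and C2 without F1-HHcy Pd21 replicate 1 (0.0400 and 0.0419) and Cfb without F1-HHcy Pd21 replicate 3 (0.0466). Without the filter, C3 (0.0541) and C1s1 (0.0546) were not called. C1s1 was thus higher in F1-HHcy at Pd7 and on the negative side at Pd21, and Serping1 likewise from Pd3 to Pd21. Cd55 hardly differed between days (0.07 for Pd21 against Pd3, adjusted p = 0.948 in limma). Both contrasts use the same Pd21 libraries, which form a separate batch from Pd3 and Pd7, so a difference by day and a difference by batch cannot be told apart.

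For the same reason, levels at Pd21 and Pd7 are given side by side with no test. In F1-Control the Pd21 mean was 8.33 times the Pd7 mean for C3, 13.1 times for C4b, 4.85 times for Cfi, 3.55 times for Cfb, 2.65 times for C1s1 and 1.34 times for Serping1. All members but Cd55 were higher at Pd21 without overlap, while 24.4% of the 13489 genes that passed the filter were. C4b passed that filter only through its 3 Pd21 libraries and Cfi did not pass it, so the share over genes that passed is no measure for these members. In F1-HHcy the ratios were 1.60 for C3, 1.88 for C4b, 0.901 for Cfb, 0.836 for Cfi, 1.18 for C1s1 and 0.834 for Serping1. There C4b, which is below the filter, was higher at Pd21 without overlap and the other 8 members overlapped, while 18.7% of 13256 genes that passed the filter were higher. C3 thus reached the second highest level of the members in F1-Control at Pd21 and in no other group.

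With the 6 groups ordered by their means, neighbouring groups overlapped for C2, Cfi and Cd55 at every step. C4b showed no overlap between F1-HHcy Pd3, F1-HHcy Pd7, F1-HHcy Pd21 and F1-Control Pd21, in rising order. Its means in F1-HHcy Pd3 and Pd7 were only 0.298 and 0.524 FPKM, and C4b was below the filter at both days. Steps from Pd3 or Pd7 to Pd21 also cross from 1 batch to the other, for every member. C1s1 and C1ra had 1 such gap, from F1-HHcy Pd3 to F1-HHcy Pd7, Cfb had 1 from F1-HHcy Pd3 to F1-Control Pd21, and Serping1 had 1 from F1-Control Pd3 to F1-HHcy Pd3. C3 in F1-Control Pd21 stood apart from all other groups, the next being F1-HHcy Pd21. Cd55, an inhibitor, had its highest mean in F1-Control Pd3 (11.7 FPKM) and its lowest in F1-HHcy Pd21 (5.66 FPKM).

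The members' profiles over the 18 libraries resembled each other in pairs. Pearson's r was 0.962 between C1s1 and C1ra, 0.937 between C3 and C4b, 0.887 between C3 and Cfb and 0.851 between C2 and Cfb, on values that share libraries, depth and the Pd21 batch. The most similar genes in the table were Ces1d (0.937), Cbr2 (0.931) and Krt80 (0.924) for C3, and Inmt (0.968), Daw1 (0.956) and Gm41666 (0.950) for C4b. Car13 (0.913), Fxyd3 (0.901) and Fgf1 (0.870) came closest to Cfb, and Slc1a1 (0.979), G6pc2 (0.958) and Plekhs1 (0.951) to Cfi. Grn was the closest to both C1s1 (0.958) and C1ra (0.917), followed by 4933412E12Rik (0.937) for C1s1 and by Slco2b1 (0.909) and Rgma (0.905) for C1ra. Serping1 ran closest to Igfbp6 (0.956) and Bgn (0.922), C2 to Zmiz1 (0.890), Nfix (0.883) and Ecm1 (0.877), and Cd55 to Hdac11 (0.939), Rspo1 (0.934) and Dtx1 (0.928).

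Of 42 other complement genes, 41 were listed. At Pd3, 17 were tested, and among them Cd55b, the paralog of Cd55, was lower (-0.59, adjusted p = 0.155 in limma).

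At Pd7, 19 were tested, 6 were called higher and 4 lower, and 6 had an adjusted p under 0.05 in limma. Over all genes tested at that day, 9.06% were called higher and 7.35% lower, and 11.9% had an adjusted p under 0.05. Csmd1, a membrane regulator, rose by 1.44, C7, a subunit of the membrane pore, by 1.43, and Cfd, factor D, which cuts factor B, by 1.94 on the log2 scale. Csmd1, C7 and Cfd were among the genes tested only through their F1-HHcy libraries, where they were higher, so their place in the count follows from the filter. Cd55b (-0.93) and C8g (-0.88) fell, as did C1qa and C1qc. At Pd21, 17 were tested and 1 was called, Cfd, which measured 46.7, 30.7 and 37.5 FPKM in F1-Control and 36.7, 4.00 and 2.01 FPKM in F1-HHcy (-2.23, SE 0.79, adjusted p = 0.437 in limma). Factor D is also known as adipsin, a product of fat cells, and the adipocyte sum in the same libraries is given above. Of 8 complement receptors, 1 was tested at Pd3, 0 at Pd7 and 0 at Pd21.

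**Figure D4:**
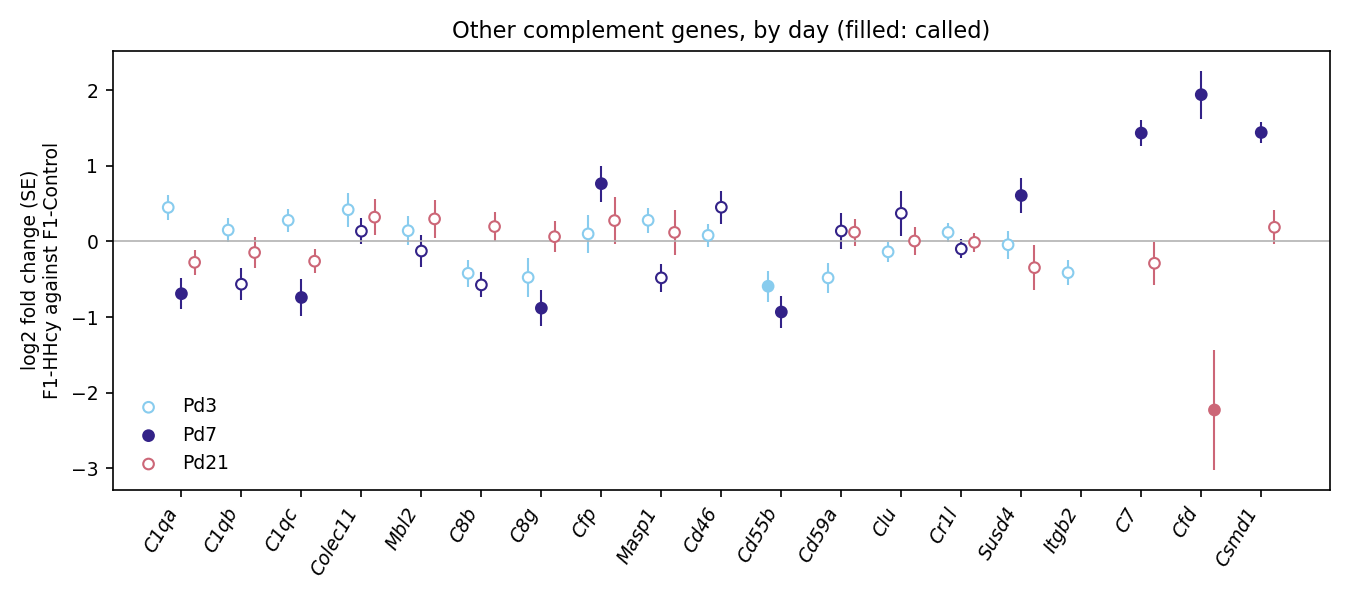
Log2 fold change of F1-HHcy against F1-Control on the log2(FPKM + 1) scale, with SE, for other complement genes tested at each day; filled points were called. Among the genes shown, Cfd at Pd7 (1.94) and at Pd21 (-2.23) lies farthest from 0.

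Genes of programmes known to induce complement transcription were set beside the members. Of 15 interferon response genes, 1 was called higher and 3 lower at Pd3 (Isg15 -2.25, adjusted p = 0.00618 in limma), 1 higher and 4 lower at Pd7, and 0 at Pd21. Of 12 acute phase genes, 2 were lower at Pd3, 0 were called at Pd7, and 3 were lower at Pd21. At Pd21 the haemoglobin binder Hp was at -3.28 (adjusted p = 0.00480 in limma) and Lcn2, an iron-siderophore binder, at -2.61 (adjusted p = 0.0151 in limma), in the comparison in which C3, C4b and Cfb were lower. Saa3 went the other way on average, with overlapping groups (0.347 to 1.64 FPKM in F1-Control against 0.537 to 5.69 FPKM in F1-HHcy). At Pd3, where no member was called lower, Lcn2 (17.2 against 2.63 FPKM) and Hp (2.66 against 1.28 FPKM) were also lower on average in F1-HHcy. Il6, Il1b and Tnf stayed under 1 FPKM in every library of both groups at Pd21. The part of these programmes in the levels of the members was not tested.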

How the data were processed

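Whole ovaries of F1 females were profiled by stranded poly-A RNA sequencing in 18 libraries, 3 in each of 6 groups of diet and day. The submitters' processing notes list FastQC 0.11.9, Trimmomatic 0.39, STAR 2.7.9a, featureCounts 2.0.1, DESeq2 1.36.0 and GRCm38 (mm10), with no roles. The files deposited by the authors hold 1 value per gene symbol and library with no unit named. The FPKM had been made by the authors from fragments per gene, gene length and library total, as far as the deposited numbers show. They were read as FPKM because whole fragments (within 0.002) came out for 100.0% of the 27294 genes with a value above 0 in 3 or more libraries, and between 33630547 and 39399215 fragments per library were recovered in this way.

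Genes that reached 1 FPKM in 3 or more libraries of a comparison were tested on log2(FPKM + 1) with limma 3.58.1 (trend) in R 4.3.3, using only the libraries of that comparison. Calls needed p under 0.05 and a log2 fold change beyond 0.58 in either direction. Differences between days were tested in 1 model of all 18 libraries, with Benjamini-Hochberg adjusted p under 0.05 as the criterion. The adjustment always ran over all genes tested. Group, day and batch (Pd3 and Pd7 in batch 1, Pd21 in batch 2) came from the labels. Values were tabulated with pandas 2.3.3 in Python 3.11.15. The fits were tested on simulated data in which every gene and library had the same spread beyond that of counting. In the real libraries that spread differed within groups, so the simulation gives no error rate for them.

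Same-numbered libraries deviated together in F1-Control between Pd3 and Pd7 (correlations of 0.134, 0.262 and 0.292) and were treated there as pairs in the blocked alternative, which changed no call. The alternatives were a pseudocount of 0.1, no filter, median-ratio scaling, the replicate block, limma-voom on the recovered fragments, 1 model of all libraries, adjusted p as the criterion, and each library left out in turn. The members, gene lists and marker lists were chosen with earlier results of these data known. The genes named as most alike are taken from the 3 with the highest Pearson's r over the 18 libraries, and other complement genes are named by their smallest p-values among those called. A few genes that these rules pick are not reported here, in the text or in the plot of other complement genes, but they stay in the fits and counts. Gene positions are from the GRCm38 annotation, and promoter windows are from RefSeq.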

Additional observations from a re-analysis of the deposited data

Results flagged for a closer look

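The diet difference of 6 members differed between days in the model of all 18 libraries, which gives 8 tested differences with an adjusted p under 0.05 in limma. Of all 14607 genes tested, 4.59% were called between Pd21 and Pd3 and 3.89% between Pd21 and Pd7. Serping1 between Pd21 and Pd3 and C4b between Pd21 and Pd7 kept the call without any 1 library. The others each lost it without some library. Between Pd21 and Pd3 the diet difference shifted on the log2 scale by -2.14 for C3 (adjusted p = 0.0288 in limma), -0.89 for C4b (0.0355), -1.35 for Cfb (0.0433), -1.70 for Cfi (0.0377) and -1.58 for Serping1 (0.00598). Between Pd21 and Pd7 it shifted by -2.36 for C3 (adjusted p = 0.0170 in limma), -1.11 for C4b (0.00897) and -1.20 for C1s1 (0.0247). All use the Pd21 libraries, which form a separate batch, so day and batch cannot be told apart. The oviduct markers also differed in these libraries, and the part of oviduct tissue in the shifts was not tested. C4b passed the filter of that model through the 3 F1-Control and 1 of the F1-HHcy libraries at Pd21, and Cfi through 2 F1-Control libraries at Pd21 and 2 F1-HHcy libraries at Pd3. Their place in the count follows in part from the filter, and the share over all genes is no measure for C4b and Cfi. With 3 libraries a group, single distant libraries were not tested.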

How the results depend on the processing

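The count of members called at Pd3 was 2 in place of 1 with a pseudocount of 0.1 and with limma-voom (Cfb added in both), and 1 to 2 with single libraries left out. At Pd7 the count was 1 to 4 with single libraries left out. At Pd21 it was 3 to 5 with single libraries left out and 0 with adjusted p as the criterion. No count is given with F1-Control replicates 1 and 3 left out, a setting chosen after the data were seen that keeps 1 control. C4b gave no value there, and C3 was at -1.21 on the log2 scale. For Pd7 against Pd3 in F1-HHcy it was 0 with adjusted p as the criterion and 1 to 2 with single libraries left out, with Cd55 added without Pd3 replicate 1 and C1ra without Pd7 replicate 3. For the difference between Pd21 and Pd3 it was 3 with a pseudocount of 0.1, 2 without the filter, 3 with the replicate block, 2 with limma-voom and 1 to 5 with single libraries left out. For Pd21 against Pd7 it was 1 without the filter and 1 to 5 with single libraries left out. The causes were not tested.

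Some values with no call turned in sign. Median-ratio scaling gave 0.031 for C2 and 0.048 for C3 in F1-Control between Pd3 and Pd7, and -0.00645 for Cd55 in the Pd7 against Pd3 difference. With single libraries left out, C1ra at Pd21 ranged from -0.45 to 0.021. Between Pd3 and Pd7, C3 ranged from -0.34 to 0.31 and C2 from -0.27 to 0.12 in F1-Control, and Cfb from -0.29 to 0.012 and C3 from -0.026 to 0.39 in F1-HHcy. In the Pd7 against Pd3 difference, C1ra ranged from -0.026 to 0.29, Cd55 from -0.20 to 0.23, Cfb from -0.32 to 0.035 and C3 from -0.093 to 0.56. Cd55 ranged from -0.15 to 0.28 for Pd21 against Pd3 and from -0.085 to 0.20 for Pd21 against Pd7.

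In the diet comparisons same-numbered libraries had correlations of -0.338 to 0.0872 and share only a number, and the replicate block left the count of calls at each day within 1.5 times. Under median-ratio scaling the share of higher calls in F1-Control between Pd3 and Pd7 moved from 47.4% to 57.7%. C4b, Cfb and Cfi rest on as few as 8, 46 and 23 fragments in a library, and no detection limit was computed for them.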
